A study of Homo sapiens with 18 samples.

Results

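A run of neighbouring genes on chromosome 9, from TLN1 to C9orf40, had lower RNA levels in N8, a CRISPR control clone of HEK cells, than in the parental HEK cells. Members were the named genes between those ends, both ends included, with more than 5.6 on the log2 scale in at least 3 of the 18 arrays. Each gene was read from the probe set with the highest mean. Of 65 genes of the stretch with a probe set, 25 were too dim and 40 passed, and 2 of these, MIR4476 and MIR1299, were left out by name. The remaining 38 members stand among 9686 genes that passed the same level filter and among 419 such genes on chromosome 9. The members were selected on the N8 minus parental values, so differences that involve N8 are given as a description, with no test.

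RNA was measured in 6 HEK lines, with 3 biological replicates and 1 Affymetrix array each. HEK is an established line derived from human embryonic kidney. N8 and N4 were CRISPR controls with unedited ATXN1L, A10, A30 and B21 were labelled ATXN1L knockout, and the parental HEK cells were ATXN1L wild type. Per the labels, cells were CRISPR treated, selected in puromycin and grown from single colonies, so N8, N4, A10, A30 and B21 are each 1 clone, and arrays of a line do not show how independently made clones vary. The label gives the same treatment text for the parental cells, and the guide of the controls is not given in the labels used here. The ATXN1L probe set lay at 7.20 to 7.61 (log2) in the 9 arrays labelled knockout and at 7.05 to 7.29 in the 9 wild-type arrays. Which part of the gene was edited is not given, so this does not check the labels. The kidney and HEK markers WT1, LHX1, EMX2, SIX2 and PAX2 passed the level filter, 5 of the 8 listed, with means of 5.55 to 7.51. Of the other markers with a probe set, LYZ and TYROBP (leukocytes), KRT5 and KRT14 (keratinocytes) and DCN (fibroblasts) did not pass, and LUM (fibroblasts) passed with a mean of 5.33. Among the arrays of A10, replicate 1 was unlike the other 2, with which it correlated across genes at only 0.01 and 0.14 once each gene's mean was subtracted. The medians, running medians and calls of A10 over the run are therefore given with and without it.

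The run starts on the short arm of chromosome 9, crosses the centromere and ends on the long arm. Its genes were grouped by their place on the chromosome, not by pathway. They include cytoskeletal and adhesion proteins, a secreted growth-factor-binding-like protein, subunits of RNA-processing and genome-maintenance complexes, and metabolic enzymes. The DNA on either side of this centromere is known for near-identical gene copies, among them the CNTNAP3, FGF7 pseudogene, FRG1 pseudogene, FOXD4-like, ZNG1 and ANKRD18 families. The 10 members from these families may share probes with their copies, and their levels are uncertain for that reason. In order, 26 members lie before the largest gap between neighbouring genes of chromosome 9, at the centromere, and 12 after it. By type, 32 are protein coding and 6 are not.

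In N8, 35 of the 38 members were lower than in parental cells and 3 were higher. The median difference of the members was −0.41 (log2; quartiles −0.53 and −0.25), a ratio of 0.754, beside 0.00 for all 9686 genes, of which 49.0% were lower. The range ran from −1.82 for IGFBPL1 to 0.21 for HRCT1. The median over members, each array against the parental mean, was −0.34, −0.37 and −0.37 in the 3 N8 arrays and 0.01, −0.04 and 0.03 in the 3 parental arrays. The N8 and parental arrays did not overlap on this measure. The members were selected on these arrays, and each parental array counts in the parental mean, so this is a description. For all genes tested, the same medians lay between −0.01 and 0.01 in these 6 arrays. Taken by replicate number, the median was −0.40, −0.35 and −0.40, and 32 members were lower in N8 in all 3 pairs. Bulk arrays cannot tell fewer cells expressing a gene from less RNA per cell.

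All 3 N8 arrays lay below all 3 parental arrays for 29 of the 38 members, where 16.7% of all genes showed this. They lay below all 3 N4 arrays for 27 members, where the share of all genes was 14%. For 11 members they lay below all the other 15 arrays, where the share of all genes was 1.94%. These 11 were TLN1, MELK, EBLN3P, GRHPR, EXOSC3, DCAF10, ZNG1C, PTAR1, SMC5, CEMIP2 and C9orf85. Against N4, whose arrays did not define the contrast, the N8 arrays were still the ones that chose the members: the median was −0.31, with 34 members lower. Neither choice of reference changed the direction of that median.

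**Figure D1:**
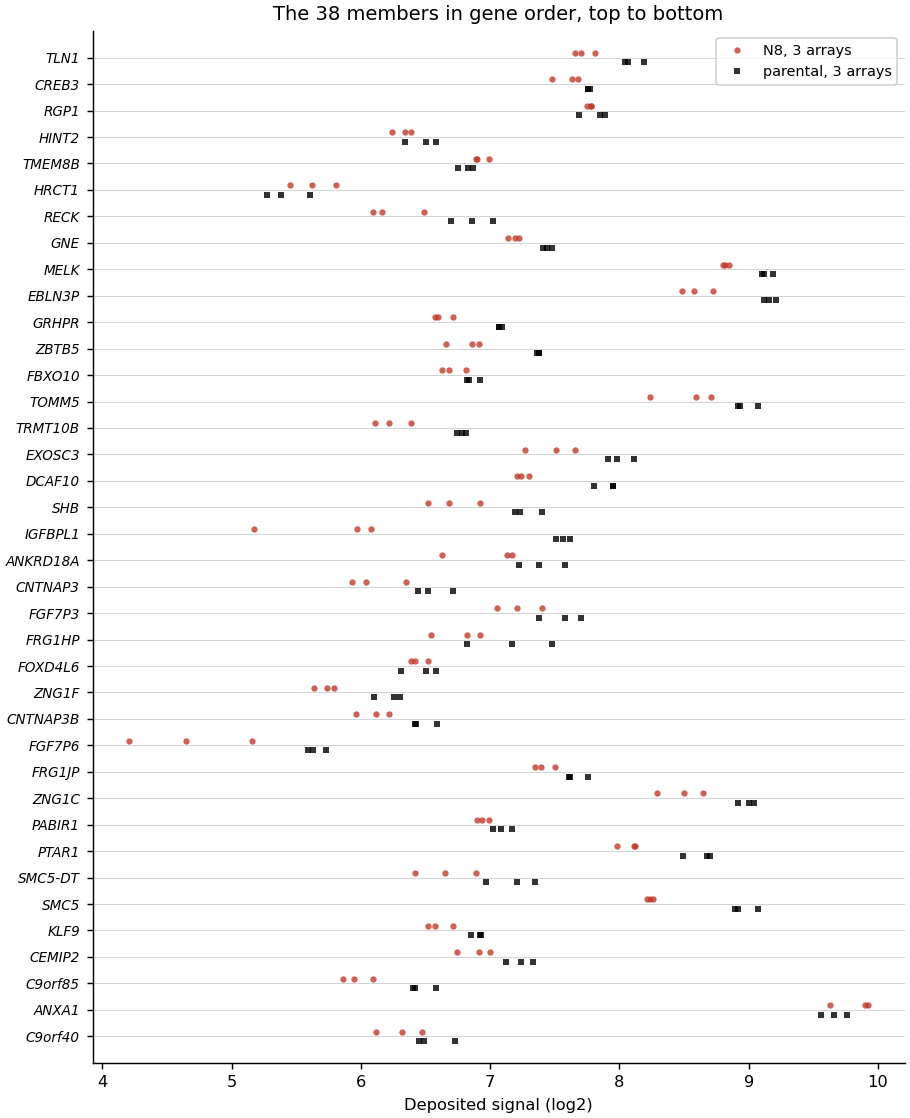
Deposited signal (log2) of each of the 38 members in gene order from TLN1 (top) to C9orf40 (bottom), with the 3 N8 arrays as red circles and the 3 parental arrays as black squares. The N8 circles lie left of the parental squares in all arrays for 29 members, and the largest shift is that of IGFBPL1.

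**Figure D2:**
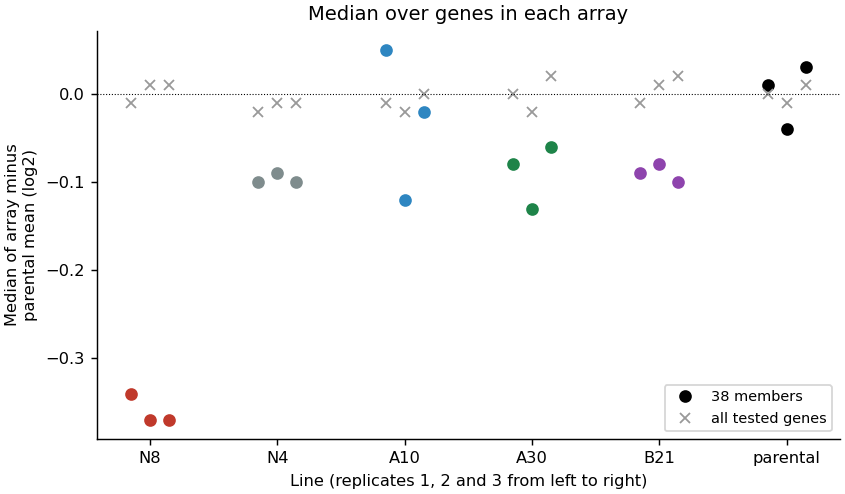
Median over genes of each array minus the parental mean (log2), for the 38 members (filled circles) and for all 9686 genes (crosses), with 3 arrays per line. The N8 arrays lie between −0.37 and −0.34, and every other array lies between −0.13 and 0.05.

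The level filter sets which genes count as members. Just inside it stood FGF7P6, whose 3 brightest arrays all passed 5.6 (the lowest of them at 5.63), then HRCT1 with 7 arrays above and ZNG1F with all 18. Those of FGF7P6 were parental replicates 1 (5.73) and 2 (5.63) and replicate 1 of A30 (5.66). Just outside stood LOC286297 and PAX5 with 1 array above and GDA with 2. PAX5 encodes a B-cell transcription factor and GDA guanine deaminase. Their N8 minus parental differences were −0.98 for FGF7P6, 0.21 for HRCT1, −0.50 for ZNG1F, 0.02 for LOC286297, 0.13 for PAX5 and −0.09 for GDA. The 25 dim genes of the stretch together had a median level of 4.22 and a median difference of 0.02, with 11 lower. By level, members with a mean of at least 7 had a median of −0.40 (21 genes) and those under 7 a median of −0.45 (17 genes). The correlation of difference and level over the 38 members was 0.11 (Pearson) and −0.03 (Spearman). These points share the same 6 arrays, so the correlation is a description. The 2 genes left out by name were MIR4476 (0.10) and MIR1299 (−0.25), and with them the median was −0.39. The 10 members of copy families and the other 28 members both had a median of −0.41. Members before and after the centromere gap had medians of −0.41 and −0.42.

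IGFBPL1, a secreted relative of the insulin-like growth factor binding proteins, was the most lowered member. It read 5.17, 5.97 and 6.08 in the N8 arrays, against 7.56, 7.51 and 7.62 in the parental arrays. The groups lay more than 1 log2 unit apart at their nearest arrays, and replicate 1 of N8 was the lowest. The difference was −1.82 ± 0.18 (SE, n = 3 arrays each), a ratio of 0.283. FGF7P6, a pseudogene copy of the growth factor gene FGF7, was the next most lowered, at 5.16, 4.65 and 4.21 in N8 against 5.73, 5.63 and 5.59 in parental cells. It is the dimmest member and belongs to a copy family. FGF7P6 passed the level filter mainly through parental arrays, where it is high, so its fall can in part be set by the filter. Its difference was −0.98 ± 0.18.

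The bases before the gene start are shown to set promoter composition beside the values. They cover the genes at both ends of the run, the most lowered member and ANXA1, a member not lowered against parental cells. The sequences are the 250 bases before each gene's start from RefSeq (GRCh38.p14), 5′ to 3′ on the gene's strand, in lower case, with capitals for every match of the motifs below on either strand. TLN1 is at chr9:35732196-35732445 (minus strand), IGFBPL1 at chr9:38424455-38424704 (minus), ANXA1 at chr9:73151615-73151864 (plus) and C9orf40 at chr9:74952913-74953162 (minus).
TLN1: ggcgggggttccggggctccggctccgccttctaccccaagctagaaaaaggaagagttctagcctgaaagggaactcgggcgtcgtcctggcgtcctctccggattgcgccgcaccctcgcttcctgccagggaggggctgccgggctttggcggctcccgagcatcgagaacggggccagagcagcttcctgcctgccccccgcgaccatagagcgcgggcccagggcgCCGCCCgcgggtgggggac
IGFBPL1: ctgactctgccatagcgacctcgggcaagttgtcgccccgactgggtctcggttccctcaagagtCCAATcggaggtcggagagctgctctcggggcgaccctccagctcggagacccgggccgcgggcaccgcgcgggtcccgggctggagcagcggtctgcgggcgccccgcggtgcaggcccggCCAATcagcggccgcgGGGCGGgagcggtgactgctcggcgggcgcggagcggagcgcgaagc
ANXA1: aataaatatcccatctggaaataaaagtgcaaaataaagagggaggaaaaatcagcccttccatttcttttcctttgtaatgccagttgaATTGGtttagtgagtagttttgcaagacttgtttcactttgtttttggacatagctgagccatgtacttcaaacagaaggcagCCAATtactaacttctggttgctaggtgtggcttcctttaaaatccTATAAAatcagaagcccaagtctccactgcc
C9orf40: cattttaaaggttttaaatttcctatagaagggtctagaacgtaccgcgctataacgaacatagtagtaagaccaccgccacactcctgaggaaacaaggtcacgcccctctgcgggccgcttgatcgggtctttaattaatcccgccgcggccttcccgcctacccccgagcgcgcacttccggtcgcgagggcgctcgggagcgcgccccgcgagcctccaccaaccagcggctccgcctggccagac

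The GC box was searched as the letters GGGCGG on both strands. A core promoter element of many regulated genes, the TATA box, was searched as TATAAA. The third motif was CCAAT, which the factor NF-Y is known to bind. The fourth was TGAATGAA, an octamer bound by CIC, the repressor named in the title of the series. No other form of a CIC site was searched. No match overlapped another in the sequences shown. The window of TLN1 was 70.8% G or C with 25 CG dinucleotides and held 1 GC box. That of IGFBPL1 was 74.8% G or C with 35 CG dinucleotides and held 1 GC box and 2 CCAAT matches. The window of ANXA1 differed in composition, with 38.4% G or C, 0 CG dinucleotides, 1 TATAAA and 2 CCAAT matches. Windows of HRCT1 and TMEM8B, the other members above parental cells in N8, are not shown, and a link to the lowering was not tested. The window of C9orf40 was 60.4% G or C with 27 CG dinucleotides and none of these motifs. Of the 38 members, 29 had an entry. Among these 29, 20 held a GC box (69%, beside 42.3% of all 27303 windows), 8 a CCAAT match (27.6% beside 33%), 1 a TATAAA (3.45% beside 11.1%) and 0 the octamer (beside 1.42%). The 29 windows had a median of 66% G or C and 23 CG dinucleotides, and all windows a median of 58% and 11. The 27303 windows were taken without the level filter, so these values do not set the members against other expressed genes. A match is a description of letters, not a bound site.

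Adhesion and cytoskeletal members were lower in N8 than in parental cells with the exception of ANXA1. The 5 of the 11 listed that passed the level filter had a median of −0.38. TLN1 encodes talin, which ties integrins to actin. It read 7.81, 7.70 and 7.66 in N8 and 8.19, 8.07 and 8.04 in parental cells, with no overlap between the groups and a difference of −0.38 ± 0.07. SHB, an adaptor protein of receptor tyrosine kinase signalling, read 6.52, 6.92 and 6.68 in N8 and 7.19, 7.40 and 7.23 in parental cells. The groups did not overlap, and the difference was −0.57 ± 0.14. CNTNAP3, a neuronal cell-recognition protein of the neurexin superfamily with near-identical copies, differed by −0.45 and its copy CNTNAP3B by −0.38. ANXA1, a calcium-dependent phospholipid-binding protein known for its part in glucocorticoid and inflammatory signalling, went the other way against parental cells. It read 9.63, 9.90 and 9.92 in N8 and 9.76, 9.66 and 9.56 in parental cells, so the groups overlapped, and the difference was 0.16 ± 0.09. Against N4, ANXA1 was lower in N8, by −0.23 ± 0.09. Its 3 N8 arrays all lay below the 3 N4 arrays, where 14% of all genes showed this.

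Of the secreted and receptor proteins, 4 of the 10 listed passed the level filter, with a median of −0.48 and 3 lower in N8. RECK, a membrane-anchored inhibitor of matrix metalloproteinases, read 6.49, 6.16 and 6.09 in N8 and 7.02, 6.70 and 6.86 in parental cells. Its groups did not overlap, and the difference was −0.61 ± 0.17. CEMIP2, a membrane protein known for hyaluronan breakdown, read 6.74, 6.91 and 7.0 in N8 and 7.24, 7.33 and 7.12 in parental cells. All its N8 arrays lay below every array of every other line, and the difference was −0.35 ± 0.09. TMEM8B, a cell-surface protein, read 6.90, 6.89 and 6.99 in N8 and 6.75, 6.87 and 6.83 in parental cells. Its N8 arrays lay just above the parental ones, and the difference was 0.11 ± 0.08. It was the only member with all 3 N8 arrays above all 3 parental arrays, where 16.6% of all genes showed this.

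The 3 transcription factors of the 7 listed that passed the level filter had a median of −0.30. PAX5, also listed but too dim to pass, differed by 0.13. ZBTB5, a zinc finger and BTB domain protein, read 6.66, 6.91 and 6.86 in N8 and 7.38, 7.36 and 7.38 in parental cells. The parental arrays of ZBTB5 spread over only 0.01 (SD), and its difference was −0.56 ± 0.08. KLF9, a Krüppel-like factor induced by glucocorticoid and thyroid hormone, differed by −0.30 ± 0.10. CREB3, a factor held in the endoplasmic reticulum membrane until it is cleaved, differed by −0.17 ± 0.08.

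Members of RNA processing and protein turnover were lower as well. EXOSC3, a subunit of the RNA exosome, read 7.27, 7.51 and 7.66 in N8 and 8.11, 7.91 and 7.98 in parental cells. Its difference was −0.52 ± 0.08, and that of TRMT10B, a tRNA methyltransferase, was −0.54 ± 0.12. These were the 2 measured genes of the 4 listed for RNA synthesis and processing. DCAF10, a substrate receptor of cullin ubiquitin ligases, read 7.24, 7.30 and 7.21 in N8 and 7.95, 7.80 and 7.95 in parental cells. The lowest parental array of DCAF10 was above the highest N8 array, and the difference was −0.65 ± 0.06. FBXO10, an F-box protein of another ubiquitin ligase, differed by −0.15 ± 0.07.

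Both genes listed for cell division and genome maintenance were measured and lower. SMC5, a core subunit of the SMC5/SMC6 DNA repair complex, read 8.21, 8.26 and 8.24 in N8 and 8.89, 8.92 and 9.07 in parental cells. The N8 arrays were close together and well below the parental ones, and the difference was −0.72 ± 0.07, a ratio of 0.606. SMC5-DT, the long non-coding RNA gene that is divergent to SMC5, differed by −0.52 ± 0.17. MELK, a kinase expressed in dividing cells, read 8.82, 8.80 and 8.85 in N8 and 9.12, 9.10 and 9.19 in parental cells, a difference of −0.31 ± 0.07.

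All 5 metabolic and mitochondrial genes of the 11 listed that passed the level filter were lower, with a median of −0.45. PTAR1, a protein with prenyltransferase alpha subunit repeats, read 7.98, 8.11 and 8.12 in N8 and 8.68, 8.49 and 8.70 in parental cells, a difference of −0.55 ± 0.09. TOMM5, a small subunit of the mitochondrial import pore, read 8.24, 8.59 and 8.71 in N8 and 8.93, 8.92 and 9.07 in parental cells, a difference of −0.46 ± 0.11. GRHPR, glyoxylate and hydroxypyruvate reductase, read 6.71, 6.57 and 6.60 in N8 and 7.07, 7.07 and 7.09 in parental cells. The GRHPR groups did not overlap, and the difference was −0.45 ± 0.07. GNE, the enzyme that starts sialic acid synthesis, differed by −0.26 ± 0.07 and the mitochondrial protein HINT2 by −0.15 ± 0.09. The only measured membrane traffic gene of the 5 listed, RGP1, part of the exchange factor for RAB6, differed by −0.04 ± 0.06.

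Of the members outside these lists, EBLN3P, a bornavirus-derived pseudogene, read 8.58, 8.48 and 8.72 in N8 and 9.21, 9.16 and 9.12 in parental cells, a difference of −0.57 ± 0.08. ZNG1C and ZNG1F, of a family of zinc chaperones with near-identical copies, differed by −0.51 and −0.50. C9orf85, a gene with no role given here, differed by −0.50 ± 0.10. C9orf40, the last member, read 6.12, 6.47 and 6.32 in N8 and 6.73, 6.49 and 6.45 in parental cells. Its groups overlapped, and its difference was −0.25 ± 0.12.

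The lowering was uneven at the TLN1 end. The 5 members after TLN1, from CREB3 to HRCT1, ran from −0.17 to 0.21 with a median of −0.04 and 3 lower. From RECK to C9orf40, 31 of 32 members were lower, with a median of −0.46 and ANXA1 as the exception. This division was drawn after the values were seen and carries no test.

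Genes beyond the ends were lower in N8 too, so TLN1 and C9orf40 did not mark sharp edges. The 40 genes before TLN1, from DMRTA1 to TPM2, had a median of −0.24 with 33 lower. The 40 genes after C9orf40, from OSTF1 to ZNF484, had a median of −0.36 with 37 lower, where A30 and B21 had medians of −0.21 and −0.16. Among the 20 nearest genes the median was −0.14 before the run (16 lower) and −0.45 after it (20 lower). The 20 genes before TLN1 were dim, with a median level of 6.45. With a mean level of at least 7 required, a setting added after the values were seen, the medians were −0.40 for the members, −0.42 for the 18 genes before and −0.44 for the 22 after. On that setting the flanks were lower by as much as the run.

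Just outside the TLN1 end, TPM2 (a tropomyosin) differed by −0.10 ± 0.09, ARHGEF39 by −0.16 ± 0.09 and CCDC107 by −0.14 ± 0.08. Farther out on that side UNC13B, the seventh gene, differed by −0.64 ± 0.07 and was named after its value was seen. Just outside the C9orf40 end, OSTF1 differed by −0.58 ± 0.14, the protease gene PCSK5 by −0.08 ± 0.08 and riboflavin kinase, RFK, by −0.26 ± 0.12. The sixth gene on that side, VPS13A, read 8.14 ± 0.01 in N8 and 8.96 ± 0.06 in parental cells (mean ± SD, n = 3), a difference of −0.82 ± 0.09 (SE). It too was named after its value was seen.

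In running medians of 21 genes along chromosome 9, N8 lay at or below −0.2 over 5 stretches. The longest ran from GNE to CKS2, with 62 genes, a median of −0.42 and 59 lower. A stretch on the short arm ran from LOC389705 to NUDT2, with 37 genes, a median of −0.43 and 34 lower. A stretch farther along the long arm ran from MIR23B to FSD1L, with 31 genes, a median of −0.30 and 29 lower. There the other clones were not all near parental cells: in the block of 20 genes from ERCC6L2-AS1 to TEX10, the median was −0.32 in N8, −0.06 in N4, 0.02 in A10, −0.40 in A30 and −0.26 in B21, each minus parental. The other 2, CNTFR to DCTN3 (3 genes) and RGP1 alone, were short. The lowest running median of the chromosome, −0.58, was centred on KLHL9 on the short arm, outside the run, where the lowest inside the run was −0.50. In blocks of 20 genes outward, the median was −0.14, −0.34, −0.46 and −0.04 on the short-arm side. On the long-arm side it was −0.45, −0.16, −0.06, −0.32 and −0.19, and the 10 blocks beyond lay between −0.13 and 0.06. The 379 genes of chromosome 9 outside the run had a median of −0.10 with 274 lower.

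**Figure D3:**
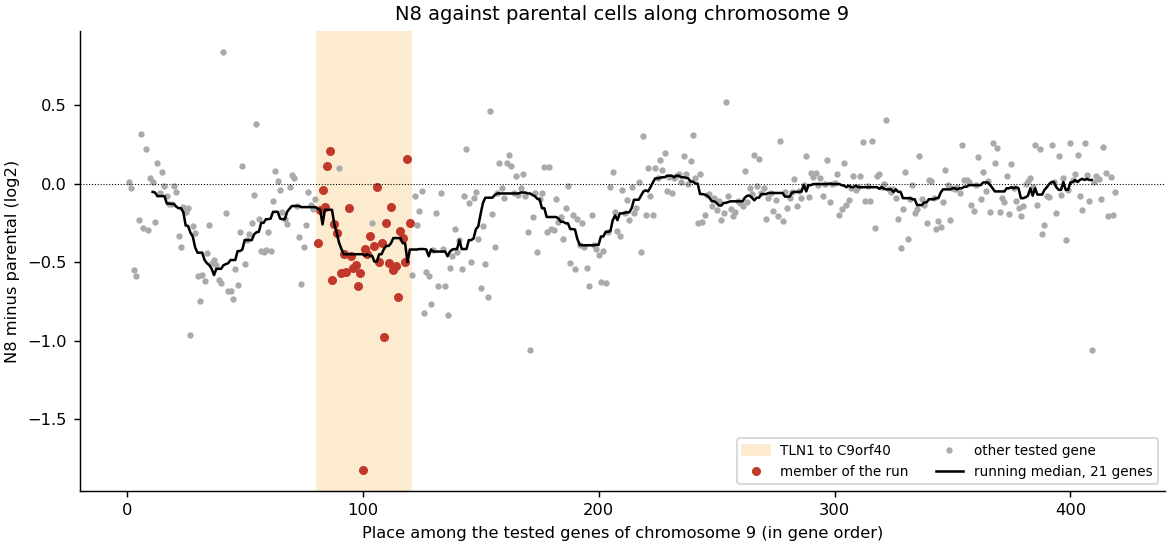
N8 minus parental (log2) for the 419 genes of chromosome 9 that passed the level filter, in gene order, with the 38 members in red, other genes in grey and the running median of 21 genes as a black line over the shaded span from TLN1 to C9orf40. The running median lies between −0.50 and −0.16 within the run and stays low beyond C9orf40.

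In the other lines the members lay much closer to parental cells. The median of the members against parental cells was −0.10 in N4, −0.01 in A10, −0.08 in A30 and −0.09 in B21. Lower than in parental cells were 22 members in A10 (57.9%, beside 53.1% of all genes). In A30 26 members were lower (68.4% beside 48.8%), and in B21 28 (73.7% beside 48.6%). The A10 median was −0.05 without its replicate 1 and 0.01 without its replicate 2. These comparisons share the parental arrays with each other and with N8, so their values stand side by side with no test of their likeness. The run was selected in part on those parental arrays, which can favour differences below parental cells. The calls against parental cells given below are therefore not independent of the selection. Within the run, the running median of 21 genes lay between −0.16 and −0.06 in N4, −0.08 and 0.04 in A10 (−0.10 and 0.03 without replicate 1), −0.14 and −0.02 in A30, and −0.11 and −0.03 in B21. In N8 it lay between −0.50 and −0.16.

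**Figure D4:**
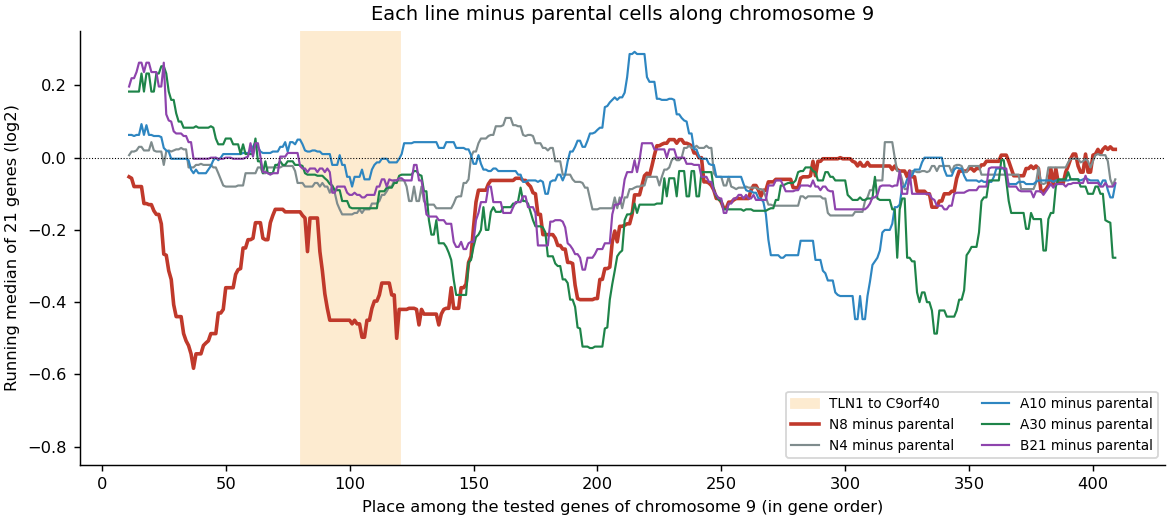
Running median of 21 genes along chromosome 9 (log2) for each line minus parental cells, in gene order, with the span from TLN1 to C9orf40 shaded. Over the shaded span N8 runs between −0.50 and −0.16, and the other 4 lines run between −0.16 and 0.04.

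In N4, 29 members were lower than in parental cells (76.3%, beside 53.9% of all genes) and 8 higher. By limma 0 were called in either direction, where 0.341% of all genes were called lower and 0.206% higher. At an unadjusted p under 0.05 stood 6 members, 15.8%, beside 13.2% of all genes. A call here means a Benjamini-Hochberg adjusted p under 0.05. GNE differed by −0.30 (limma adjusted p = 0.0772) and ANXA1 by 0.39 (adjusted p = 0.0661). With the replicate number as a block, which pairs these arrays, both passed, each with a limma adjusted p of 0.0384. ANXA1 also passed when replicate 1 of A10 (limma adjusted p = 0.0248), replicate 1 of N8 or replicates 1 of all lines were left out.

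Against parental cells, 2 members fell and 3 rose in A10 by limma, 5.26% and 7.89% of the members beside 3.18% and 3.38% of all genes. IGFBPL1 fell by 0.91 on the log2 scale (limma adjusted p = 0.00686) and DCAF10 by 0.22 (adjusted p = 0.0499). PABIR1, an inhibitor of the phosphatase PP2A, rose by 0.38 (limma adjusted p = 0.00906), CEMIP2 by 0.38 (adjusted p = 0.0148) and ANXA1 by 0.64 (adjusted p = 0.000521). Without replicate 1 of A10, IGFBPL1 (−1.08), PABIR1 (0.40), CEMIP2 (0.44) and ANXA1 (0.73) were called and DCAF10 was not (limma adjusted p = 0.0539). The DCAF10 call was lost in 20 of 24 alternatives, 16 of them omissions of 1 array, and its limma adjusted p ran from 0.0276 to 0.174. Of the omissions of an array, only those of replicate 1 of N8 and replicate 2 of the parental cells kept it. The call of PABIR1 was lost without replicate 2 of A10 (limma adjusted p = 0.0534, range over all alternatives 0.00227 to 0.0534). That of CEMIP2 was lost without replicate 2 or 3 of A10 or replicate 3 of the parental cells, with limma adjusted p of 0.00807 to 0.0728 over all alternatives. Without replicate 2 of A10 only 1 member was called higher.

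In A30, 6 members fell and 2 rose against parental cells by limma, 15.8% and 5.26% of the members beside 14.6% and 10.5% of all genes. IGFBPL1 fell by 1.58 on the log2 scale (limma adjusted p = 1.29e-05), FGF7P3 by 0.43 (adjusted p = 0.00493) and ZNG1F by 0.37 (adjusted p = 0.00816). ZBTB5 fell by 0.34 (limma adjusted p = 0.00673), RECK by 0.51 (adjusted p = 0.0391) and GNE by 0.28 (adjusted p = 0.0108). ANXA1 rose by 0.82 (limma adjusted p = 1.07e-05) and CEMIP2 by 0.29 (adjusted p = 0.0233). The call of RECK was lost with no level filter and without replicate 2 or 3 of A30 or replicate 1 or 3 of the parental cells, with limma adjusted p of 0.00627 to 0.177 over all alternatives. That of GNE was lost with replicates 2 and 3 alone and without replicate 2 of A30, with limma adjusted p of 0.003 to 0.0618 over all alternatives. The CEMIP2 call was lost with replicates 2 and 3 alone and without replicate 1 of A30 or replicate 1 or 3 of the parental cells, with limma adjusted p of 0.0138 to 0.104. The count of members called higher was 4 without replicate 2 of A30 and 1 without replicate 1 or 3 of the parental cells.

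In B21, 2 members fell and 2 rose against parental cells by limma, 5.26% of the members each way beside 6.01% and 6.68% of all genes. IGFBPL1 fell by 1.46 on the log2 scale (limma adjusted p = 5.56e-05) and ZBTB5 by 0.42 (adjusted p = 0.00288). ANXA1 rose by 1.02 (limma adjusted p = 2.3e-06) and CEMIP2 by 0.46 (adjusted p = 0.00237). These 4 calls held in all 24 alternatives. With the replicate number as a block, which pairs these arrays, 5 members were called lower, the other 3 being FGF7P3 (−0.29), C9orf85 (−0.28) and EBLN3P (−0.22).

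Differences of A10, A30 and B21 from N4 use no value of the N8 or parental arrays, on which the run was selected. Their errors and adjusted p do draw on those arrays, since all 18 share 1 estimate of the spread. The median of the members was 0.06 in A10, 0.03 in A30 and 0.05 in B21 against N4. Without replicate 1 of A10 the A10 median was 0.04, and over omissions of each array it ran from 0.04 to 0.12 (0.12 without replicate 2 of A10). The A30 median ran from −0.01 (without replicate 1 of N4) to 0.04, and that of B21 from 0.02 (without replicate 3 of B21 or replicate 1 of N4) to 0.06.

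Against N4, 0 members fell and 4 rose in A10, 10.5% higher beside 2.95% of all genes called lower and 3.76% higher. PABIR1 rose by 0.38 (limma adjusted p = 0.00838), CEMIP2 by 0.36 (adjusted p = 0.0195), GNE by 0.28 (adjusted p = 0.0302) and MELK by 0.27 (adjusted p = 0.0203). Without replicate 1 of A10 these 4 passed, with ANXA1 higher by 0.34 (limma adjusted p = 0.0202) and IGFBPL1 lower by −0.64 (adjusted p = 0.0354). IGFBPL1 was also called without replicate 1 of N8. The PABIR1 call was lost without replicate 2 of A10 (limma adjusted p = 0.0509, range over all alternatives 0.00258 to 0.0509). CEMIP2 lost its call without replicate 2 or 3 of A10 or of N4, GNE without replicate 3 of A10 or any 1 of the N4 arrays, and MELK without any 1 of the N4 arrays. GNE and MELK were also lost with replicates 2 and 3 alone, and GNE with no level filter. The count called higher was 2 without replicate 2 or 3 of A10 or replicate 1 of N4, and 1 without replicate 2 or 3 of N4.

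In A30, 3 members fell and 6 rose against N4, 7.89% and 15.8% of the members beside 12% and 10.6% of all genes. IGFBPL1 fell by 1.14 on the log2 scale (limma adjusted p = 0.000281), RECK by 0.51 (adjusted p = 0.0395) and FGF7P3 by 0.42 (adjusted p = 0.00634). ANXA1 rose by 0.43 (limma adjusted p = 0.00253), FOXD4L6, a forkhead gene copy, by 0.41 (adjusted p = 0.0204) and MELK by 0.28 (adjusted p = 0.00599). CREB3 (0.28), TMEM8B (0.28) and CEMIP2 (0.27) rose as well. IGFBPL1, ANXA1 and MELK passed in all 24 alternatives, and FGF7P3 passed in all but the mean of its probe sets (limma adjusted p = 0.0806, range over all alternatives 0.00168 to 0.0806). RECK lost its call without replicate 2 or 3 of A30 or any 1 of the N4 arrays, CEMIP2 without replicate 1 or 3 of A30 or replicate 2 or 3 of N4, and both with no level filter. TMEM8B lost its call without replicate 2 or 3 of A30 or replicate 2 of N4, FOXD4L6 without replicate 2 of A30 or replicate 3 of N4, and CREB3 without replicate 3 of A30 or replicate 1 of N4. FOXD4L6 was also lost with the mean of its probe sets and with replicates 2 and 3 alone. Without replicate 3 of A30, 3 members were called higher.

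In B21, 1 member fell and 5 rose against N4, 2.63% and 13.2% of the members beside 5.8% and 8.26% of all genes. IGFBPL1 fell by 1.01 on the log2 scale (limma adjusted p = 0.00129). ANXA1 rose by 0.63 (limma adjusted p = 0.000248), CEMIP2 by 0.44 (adjusted p = 0.00312), and GNE by 0.28 (adjusted p = 0.0185). MELK (limma adjusted p = 0.0122) and DCAF10 (adjusted p = 0.00967) rose by 0.27. IGFBPL1, ANXA1 and CEMIP2 passed in all 24 alternatives. Without replicate 3 of B21 the calls of GNE, MELK and DCAF10 were lost and 2 members were called higher, and GNE was also lost without replicate 2 of B21 or replicate 1 or 2 of N4. GNE and DCAF10 were also lost with replicates 2 and 3 alone. With the replicate number as a block, which pairs these arrays, 3 members were called lower, the others being FGF7P3 (−0.28) and ZBTB5 (−0.21). Without replicate 1 of N4, 2 were called lower.

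IGFBPL1 was thus lower than in parental cells in N8 and in each line labelled knockout. It read 5.17, 5.97 and 6.08 in N8, 7.06, 7.05 and 7.25 in N4, 6.99, 6.41 and 6.56 in A10, 6.10, 5.88 and 5.97 in A30, 6.24, 6.04 and 6.04 in B21, and 7.56, 7.51 and 7.62 in parental cells. N4 lay between the parental cells and the knockout-labelled lines, N8 overlapped A30 and B21, and all 15 clone arrays lay below the parental ones. The share of all genes with this last split was not counted, and the run was selected in part on the parental arrays. N4 differed from parental cells by −0.44, which was not called. ANXA1 read 9.63, 9.90 and 9.92 in N8, 10.07, 10.02 and 10.05 in N4, 10.11, 10.40 and 10.38 in A10, 10.45, 10.43 and 10.55 in A30, 10.62, 10.66 and 10.75 in B21, and 9.76, 9.66 and 9.56 in parental cells. All 9 arrays of the knockout-labelled lines lay above all 9 wild-type arrays, a separation whose share among all genes was not counted. CEMIP2 read 6.74, 6.91 and 7.0 in N8, 7.39, 7.19 and 7.17 in N4, 7.51, 7.65 and 7.68 in A10, 7.62, 7.43 and 7.51 in A30, 7.63, 7.67 and 7.77 in B21, and 7.24, 7.33 and 7.12 in parental cells. The knockout-labelled arrays of CEMIP2 again lay above all wild-type arrays, with N8 lowest, and again the share of all genes was not counted. The arrays come from only 3 lines per genotype, and neither ANXA1 nor CEMIP2 was called on line means. SMC5 read 8.21, 8.26 and 8.24 in N8, 8.78, 8.76 and 8.62 in N4, 9.0, 8.91 and 8.93 in A10, 8.91, 8.76 and 9.0 in A30, 8.84, 8.79 and 8.88 in B21, and 8.89, 8.92 and 9.07 in parental cells. All N8 arrays of SMC5 lay below every array of the other lines. The N4 arrays of SMC5 also lay below the parental ones, and the share of all genes with that split was not counted.

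**Figure D5:**
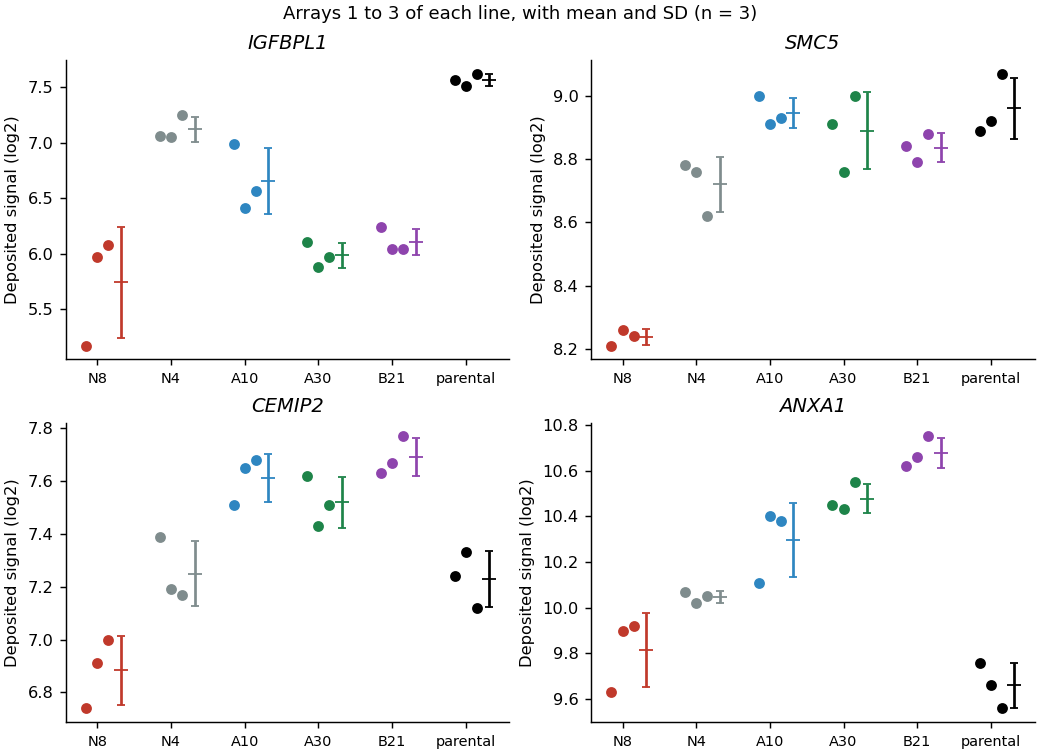
Deposited signal (log2) of IGFBPL1, SMC5, CEMIP2 and ANXA1 in the 3 arrays of each line (points), with the line's mean and SD beside them. SMC5 is lowest in the 3 N8 arrays, and IGFBPL1 is below the parental arrays in every other line. ANXA1 and CEMIP2 are above all wild-type arrays in A10, A30 and B21, though neither was called on line means. For IGFBPL1, ANXA1 and CEMIP2 the share of all genes with such a separation was not counted.

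The series was built to compare ATXN1L genotypes, and N8 is 1 of its 3 wild-type lines. On means of 3 knockout-labelled lines against 3 wild-type lines, 31 members were higher and 7 lower, with a median of 0.10, and 0 members were called by limma. At an unadjusted p under 0.05 stood 3 members, 7.89%, beside 9.67% of all genes. Without N8 in the wild-type group, 18 members were higher and 20 lower, with a median of 0.00, and again 0 were called. Here 5 members, 13.2%, stood at an unadjusted p under 0.05, beside 10.1% of all genes. Without replicate 1 of A10, and with N8, the median was 0.09 and 0 members were called. Of all genes, 0% were called lower and 0% higher with N8, and 0.0413% and 0.0103% without it. ANXA1 was higher by 0.64 with N8 (limma adjusted p = 0.31) and by 0.63 without it. CEMIP2 was higher by 0.49 with N8 (limma adjusted p = 0.31) and by 0.37 without it. SMC5 differed by 0.25 with N8 and by 0.05 without it, and MELK by 0.31 and 0.22. IGFBPL1 differed by −0.56 with N8 (limma adjusted p = 0.693) and by −1.09 without it (adjusted p = 0.218). With 3 lines against 3, these values rest on few clones.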

How the data were processed

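RNA of 18 HEK arrays, 3 per line in 6 lines, was analysed. The deposited values are log2 signals, 1 per probe set, for which the authors used Affymetrix Expression Console, per the submitters' processing notes. Its version and settings, like the genome build, were not given in the sources used here. That the scale is log2 was read from the values, 0.57 to 14.84, with array medians of 5.09 to 5.18, so no further normalisation was applied. Of 53617 probe sets, 16098 carried 1 gene symbol, 0 several and 37519 none. Symbols were updated through RefSeq, which also gave gene order; all 16098 matched. They covered 14884 genes, and for the 779 with more than 1 probe set the brightest on average was kept. Of these, 9686 (65.1%) passed the level filter. With 3 arrays per line, precision is limited by their number.

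All 18 arrays were fitted with 1 mean per line (limma 3.58.1, R 4.3.3), two-sided, with Benjamini-Hochberg adjustment over the 9686 genes and a threshold of 0.05. Genotypes were compared on line means. Errors are limma standard errors unless marked SD. P-values of the line comparisons measure how replicates of 1 line vary, not how clones vary. Those of the genotype comparison rest on the spread between line means. The fit was tested on simulated data. The members and the role lists were chosen with earlier results of these data known. Named are the 3 markers of the run, the 10 most lowered members in N8 and the 4 at the other end, up to 3 called members per direction in each other comparison, the 3 genes inside and outside each end, up to 4 members per role list and those next to the level threshold; others appear as calls, in counts or beside their lists, or are said to be named after their values were seen.

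Replicate numbers pair arrays of 2 lines where every same-numbered pair deviates together (r over 0.1 across genes): this held for N8, N4 and B21 against parental cells, and for N8, A10 and B21 against N4, with lowest r of 0.17, 0.10 (over 0.1 unrounded), 0.14, 0.17, 0.12 and 0.13. It did not for A10 and A30 against parental cells (0.04 and 0.00) and A30 against N4 (0.00). Where the rule held, the best match had the same number for only 1 of 3 arrays in N8 against N4. It was 2 of 3 in N4 against parental cells and 3 of 3 in the other comparisons that held. Alternatives were a replicate block, no level filter, the mean of probe sets, quantile normalisation, other limma settings, other references and flank widths, and omitting each array. A flank level minimum, line means without replicate 1 of A10, copy families and subsets by replicate number were added after seeing the data. Figures were drawn with matplotlib 3.10.9 in Python 3.11.15 (pandas 2.3.3, numpy 2.4.6).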

Additional observations from a re-analysis of the deposited data

How the results depend on the processing

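The N8 minus parental median of the members, −0.41, was −0.31 with N4 as the reference and −0.35 with the mean of parental cells and N4, which change the control arrays, and it ran from −0.43 to −0.36 when each array was left out (−0.36 without replicate 1 of the parental cells). Of the medians over the members, 2 that lie near 0 changed sign: that of A10 against parental cells, −0.01, was 0.01 after quantile normalisation and −0.05 to 0.01 with arrays left out (0.01 without replicate 2 of A10), and that of A30 against N4, 0.03, was −0.01 to 0.04 (−0.01 without replicate 1 of N4). No named call changed sign. For the edges, the median of the genes before the run, −0.24, was −0.14 with 20 flanking genes and −0.42 with a mean level of at least 7; that of the genes after it, −0.36, was −0.45 and −0.44. The N4 median against parental cells, −0.10, was −0.07 after quantile normalisation. The B21 median, −0.09, was −0.06 with the mean of probe sets, after quantile normalisation and with replicates 2 and 3 alone, and −0.09 to −0.06 with arrays left out; against N4 it was 0.02 to 0.06, and that of A10 against N4 0.04 to 0.12. The genotype median of 0.10 was 0.00 without N8 and 0.09 without replicate 1 of A10. Counts of members called moved as follows, and the cause was not tested. In N4 the count lower, 0, was 1 with the replicate block, and the count higher, 0, was 1 with the block, with trend and robust settings and with replicates 2 and 3 alone, and 0 to 1 with arrays left out. In A10 the count lower, 2, was 1 with the mean of probe sets, with no level filter, after quantile normalisation, with replicates 2 and 3 alone and in 16 of 18 omissions of an array, and the count higher was 1 to 3 in these omissions. In A30 the count higher, 2, was 5 after quantile normalisation, 5 with the block (whose numbers do not pair these arrays) and 1 with replicates 2 and 3 alone, and 1 to 4 in the omissions. In B21 the count lower, 2, was 5 with the block. Against N4, the A10 count lower, 0, was 1 with replicates 2 and 3 alone and 0 to 1 in the omissions, and its count higher was 1 to 5. The A30 count higher was 3 to 6. The B21 count lower, 1, was 2 after quantile normalisation, 3 with the block, 2 with replicates 2 and 3 alone and 1 to 2 in the omissions; its count higher, 5, was 3 with replicates 2 and 3 alone and 2 to 6 in the omissions. The replicate block changed no other count by over 1.5 times. Of the named calls under alternatives, 785 of 864 kept their side of the threshold and 79 did not. Low signal limits what can be said of the 25 dim genes of the run (median level 4.22).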
